A study of Mus musculus with 127 samples.

Results

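The mouse genes whose symbols start with Kcn encode the pore-forming subunits of potassium channels together with subunits and modifiers that join them. Rows of the count table were taken when the symbol started with Kcn, the gene was annotated as protein coding, and at least 10% of the neurons, that is 12 neurons, had a count. The rule kept 64 of the 94 protein-coding Kcn genes, and a further 5 Kcn rows were not protein coding. RNA had been read from single cells by Patch-seq, in which a cell is recorded through a patch pipette and its content is then drawn into the same pipette. The cells were 14 astrocytes and striatal neurons in 5 groups, and the design text of the series states 117 neurons, 4 more than the groups below add up to. The neurons came from the striatum of newborn C57BL/6 mice and grew on small islands of cortical astrocytes. All neurons except the empty vector neurons carried a lentivirus for the first exon of human huntingtin fused to green fluorescent protein, with a glutamine repeat of 97 (97Q, labelled mutant) or 25 (25Q, labelled wild type). RGFP109, which blocks the histone deacetylases HDAC1 and HDAC3, was given at 100 nM from day 6 in culture and again at regular intervals. Vehicle cells received DMSO. Collection was at day 15.

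The groups were 14 untreated astrocytes from cortex, 26 neurons with 97Q and RGFP109, 26 with 97Q and vehicle, 23 with 25Q and RGFP109, 9 with empty vector and vehicle, and 29 with 25Q and vehicle. The transgene is an exon 1 fragment given by virus to cultured cells, so it models neither the whole protein nor the adult striatum. Each of the 4 groups with a transgene was present in batches 1, 2 and 3, with 3 to 15 cells per batch, whereas astrocytes and empty vector neurons were in batch 3 only. No animal or culture is named in the labels. The cells that shared a group and a batch were therefore added up, and the 3 sums of a group served as its replicates, so p-values measure only how these sums vary, which may be technical.

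Potassium channels let potassium leave the cell and thereby hold the resting potential, end action potentials and set the pauses between them. Voltage-gated families (Kcna, Kcnb, Kcnc, Kcnd, Kcnh, Kcnq) open on depolarisation, Kcnma1, Kcnn and Kcnt channels answer to calcium or sodium inside the cell, Kcnj channels rectify inwardly, and Kcnk channels leak at rest. Silent subunits (Kcnf, Kcng, Kcns, Kcnv) form channels only with Kcnb partners, and auxiliary subunits (Kcnab, Kcne, Kcnip, Kcnmb) alter gating and transport. Projection neurons of the striatum are known for strong Kcnj2-type rectification and for Kcnd-type transient currents, and astrocytes for a large resting conductance through Kcnj10.

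Total counts ran from 999700 to 9263305 per cell, with a median of 4440040, and the 12 sums held 8665881 to 76217208 counts. Levels are counts per 1000000 (CPM) where 1 gene is compared between groups, and reads per kilobase of merged exons per 1000000 (RPKM) where genes are compared with each other. Astrocyte markers (18 genes) summed to 21282 CPM in the astrocytes, 748 CPM in the empty vector neurons and 323 to 1711 CPM in the sums of the 4 transgene groups. Hes5 was at 0 in every group, astrocytes included, and Gjb6 in every group except 97Q neurons with RGFP109. Markers of GABAergic neurons (8 genes) summed to 12.2 CPM in astrocytes, to 1061, 963 and 1867 CPM in 97Q neurons of batches 1, 2 and 3, to 1274, 729 and 2149 CPM in 97Q neurons with RGFP109, to 3811, 3435 and 5100 CPM in 25Q neurons with RGFP109, to 5358 CPM in empty vector neurons and to 2422, 3010 and 5295 CPM in 25Q neurons. Markers of striatal projection neurons (14 genes) summed to 859, 1041 and 635 CPM in 97Q neurons and to 2374, 4016 and 1012 CPM in 25Q neurons of batches 1, 2 and 3, and all 14 had counts in both groups. They summed to 1324, 825 and 653 CPM in 97Q neurons with RGFP109 and to 1212, 1017 and 1315 CPM in 25Q neurons with RGFP109. Empty vector neurons had 738 CPM, with Tac1 and Drd2 at 0, a level within the range of the 97Q sums. Fewer cells of a type and less RNA per cell cannot be told apart in sums of this kind. Reads here carry no molecular identifiers and are not independent molecules, so intervals of counts and shares measure counting error alone.

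Promoter sequence is shown for a glial and a pair of neuronal genes because their levels separated the cell types most clearly (Kcnj10, Kcnd2) or ranked first in the comparison of 97Q with 25Q (Kcnip2). Each is the 250 bases upstream of a RefSeq start on GRCm38.p6, read 5′ to 3′ on the strand of the gene, and capitals mark the GC box GGGCGG on either strand, a sequence bound by Sp1-type factors.
Kcnj10, chr1:172340960-172341209, plus strand: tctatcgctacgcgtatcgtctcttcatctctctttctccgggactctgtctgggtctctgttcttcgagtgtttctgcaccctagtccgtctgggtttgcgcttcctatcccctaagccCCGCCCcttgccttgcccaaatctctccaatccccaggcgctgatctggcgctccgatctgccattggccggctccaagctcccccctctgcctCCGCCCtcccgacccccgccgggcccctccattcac
Kcnd2, chr6:21215096-21215345, plus strand: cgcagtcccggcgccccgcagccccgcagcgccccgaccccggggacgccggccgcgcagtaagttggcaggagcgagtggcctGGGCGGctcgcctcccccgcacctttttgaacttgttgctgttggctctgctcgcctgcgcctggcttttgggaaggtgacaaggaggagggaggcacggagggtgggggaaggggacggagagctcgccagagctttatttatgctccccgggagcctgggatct
Kcnip2, chr19:45816064-45816313, minus strand: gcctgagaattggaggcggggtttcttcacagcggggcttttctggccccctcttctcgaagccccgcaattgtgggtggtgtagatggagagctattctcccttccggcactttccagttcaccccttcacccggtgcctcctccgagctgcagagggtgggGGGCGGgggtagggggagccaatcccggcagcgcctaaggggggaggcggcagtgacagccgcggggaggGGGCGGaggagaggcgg
These stretches held 17, 22 and 15 CpG dinucleotides in the order printed, with 2, 1 and 2 GC boxes. The RefSeq table held promoters of 46 of the 64 genes, 68 promoters in all. A GC box was present in 30 of the 68 promoters (44.1%), against 32.7% of 32851 promoters of all genes. The cAMP response element TGACGTCA, searched on both strands, was present in 0 of the 68, against 1.55% of all promoters. The median GC content was 59.6% for the potassium channel genes and 52.4% for all promoters. A match describes the sequence and shows no binding, and no match says only that these letters are absent from the window.

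Length-scaled levels over all neurons were led by Kcnk1, a leak channel subunit, with a mean of 24.7 RPKM. It was followed by Kcnd2, the pore of the transient A-type current in dendrites, with 14.6 RPKM, and by its cytoplasmic calcium-binding partner Kcnip2 with 14.0 RPKM. Kcnj3, a subunit of the channels opened by G proteins, averaged 13.4 RPKM, and the Kcnd partners Kcnip3 and Kcnip4 averaged 12.8 and 11.5 RPKM. Kcnab1, a cytoplasmic subunit of Kcna channels, had 9.30 RPKM and Kcnma1, the large-conductance channel gated by calcium and voltage, 5.95 RPKM. Kcna6 and Kcna4, low-threshold voltage-gated subunits, had 5.52 and 5.49 RPKM and closed the first 10. Neighbours in this order differ by far less than single cells do, as the values per cell given further on show. The lowest member was Kcnk4 with 0.327 RPKM.

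**Figure D1:**
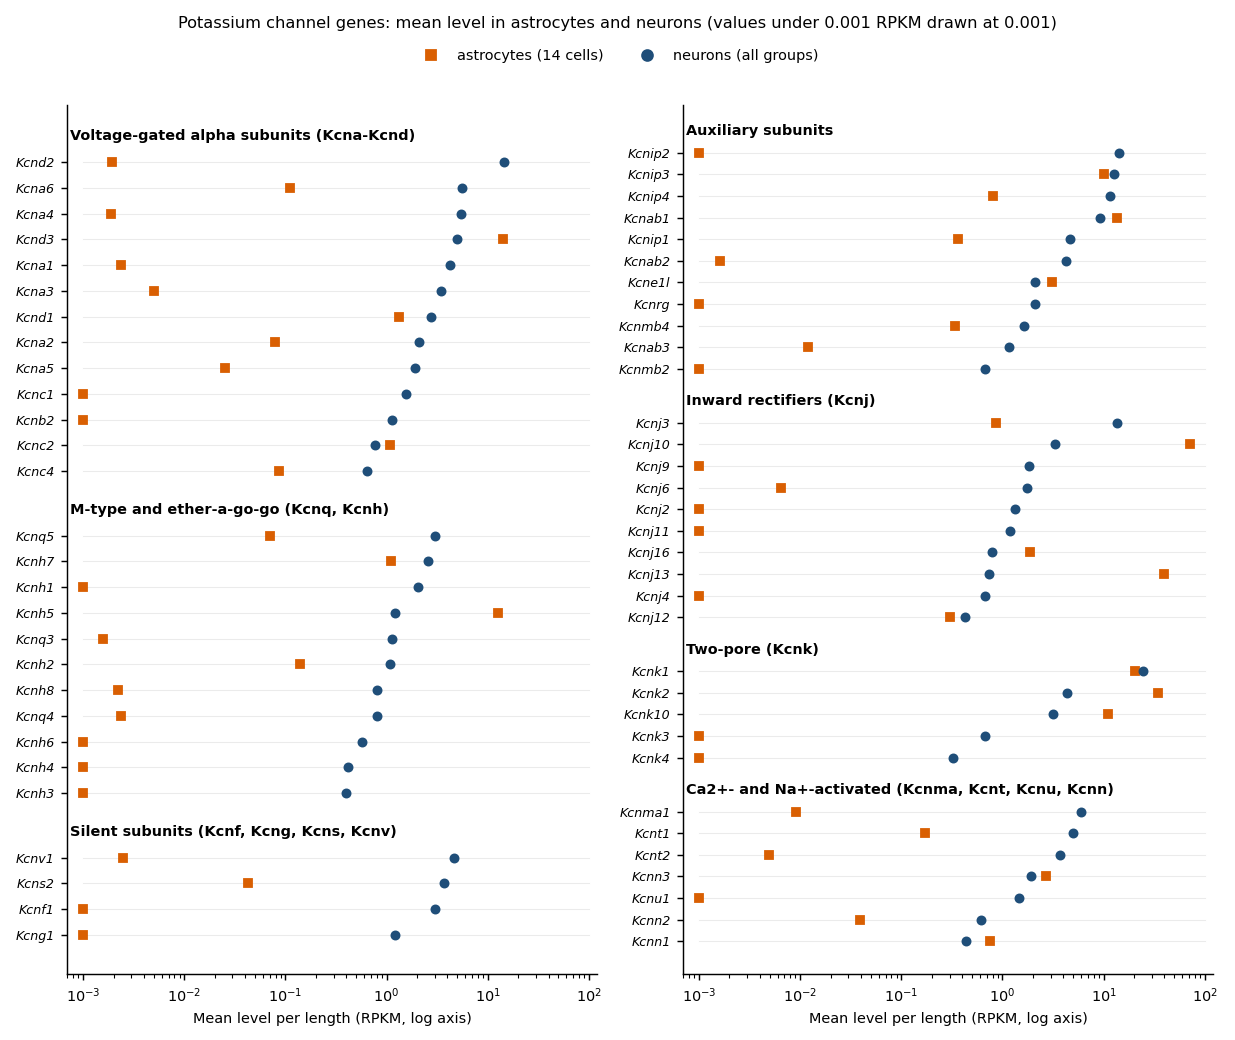
Mean level of the potassium channel genes reported here, grouped by role, in 14 astrocytes (squares) and all neurons (circles); the horizontal axis is RPKM on a log scale and values under 0.001 are drawn at 0.001. Kcnk1 is the highest in neurons at 24.7 RPKM, while most voltage-gated genes lie far lower in astrocytes and Kcnj10 lies far higher.

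By role, the 11 auxiliary genes held 28.5% of the summed RPKM of the 64 genes in neurons, the 5 Kcnk genes 14.7%, the 10 Kcnj genes 11.3%, the 6 Kcna genes 10.1% and the 3 Kcnd genes 9.92%. In astrocytes the same shares were 11.6% for auxiliary genes, 27.0% for Kcnk, 46.6% for Kcnj, 0.0917% for Kcna and 6.37% for Kcnd. They are shares within a list chosen by counts in neurons. The order of the neuronal genes depends partly on the length chosen: with the longest transcript in place of merged exons, 8 of the first 10 were shared. The 30 protein-coding Kcn genes left out had a count in fewer than 12 neurons. Just inside the limit were Kcnmb2 and Kcnn1 with a count in 13 neurons each and Kcnj16 in 14, and just outside were Kcnk12, Kcnk6 and Kcns3 in 11 each.

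Within the neurons, most of these genes were read in some cells and not in others. Kcnma1 had a count in 108 neurons, Kcnd2 and Kcnd3, the other A-type pore, in 101 each, and Kcnk1 in 99. Counts were found in at least 90% of neurons for 2 genes, Kcnma1 among them, 28 genes were read in at least 50%, and 18 in under 25%. A neuron had 4 to 33 of the 64 genes at 10 CPM or more, with a median of 16, against 3 to 14 and a median of 9 in astrocytes. Depth was not equalised, and genes read only in astrocytes could not enter a list chosen in neurons. The lower number in astrocytes is thus built in part into the rule. A few cells carried most of the reads of some genes: 3 neurons held at least 50% of all neuronal counts of Kcnj2, whereas it took 19 neurons for Kcnma1. Exon sequence of 24 of the 64 genes overlaps another annotated gene, which is protein coding for Kcnh3, Kcnh7, Kcnip4, Kcnj13 and Kcnk4. Whether counting used the strand is not given in the sources used here, so reads of these genes may belong in part to the neighbour.

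The first question was which channel genes differ in neurons with the long repeat, set against the short repeat, under vehicle. None of the 50 potassium channel genes that passed the filter on low counts reached an adjusted p of 0.05 in the quasi-likelihood test of edgeR, adjusted by Benjamini and Hochberg over 15091 genes. The background was the same, with 0% of all genes called. The other 14 of the 64 genes were too sparse to test. At an unadjusted p below 0.05, which allows no call, edgeR had 5 of the 50 genes (10%), all lower in 97Q, against 3.96% of all genes in either direction, 2.46% lower and 1.5% higher. They were Kcnip2, Kcnj2, Kcng1, Kcnn3 and Kcnab1, and their adjusted p was 0.969 each in edgeR. Of the 50 genes, 34 (68%) had a fitted change below 0, against 47.6% of all genes, and their median log2 change was -0.86, against 0.06 over all genes tested. In single batches the difference was taken in log2(CPM + 1), which shrinks low levels and is not on the scale of the fit. Its median over the 50 genes was -0.38, -0.04 and -0.31 in batches 1, 2 and 3, against 0.04, 0.08 and -0.02 over all genes tested.

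Kcnip2 (chr19:45791839-45816061, minus strand), the Kcnd partner, had 4.66, 4.39 and 22.3 CPM in the batch 1, 2 and 3 sums of 97Q neurons, against 50.0, 93.2 and 22.8 CPM in those of 25Q neurons. The sums did not overlap, but the batch 3 sums were nearly equal. Of the 25Q sum of batch 2, 99.8% came from 1 of its 4 neurons. The log2 change was -2.53 ± 0.89 (SE; unadjusted p = 0.0190, edgeR). A level of 10 CPM was reached by 10 of 26 97Q neurons and 16 of 29 25Q neurons.

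Kcnj2 (chr11:111066164-111076821, plus strand) encodes the inward rectifier that holds projection neurons at a negative resting potential. It had 0, 0 and 0.105 CPM in 97Q sums, against 9.24, 46.1 and 0.959 CPM in 25Q sums. The 97Q neurons gave 7 counts in all, in 6 of 26 cells, with at most 0.819 CPM in a cell. Among 25Q neurons 13 of 29 had a count and 5 reached 10 CPM, and 1 neuron gave 85.8% of the sum in batch 2 and 90.9% in batch 3. The fitted log2 change of -7.40 ± 2.67 (SE; unadjusted p = 0.0208, edgeR) rests on sums at 0 and depends on the prior count. DESeq2, run as an alternative, called Kcnj2 lower (adjusted p = 0.00501), the only call it made among the 50 genes here, with 1.47% of all genes called. The adjusted p of Kcnj2 ran from 0.00501 to 1.00 over 11 alternatives, and its direction was the same in all 11.

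Kcng1 (chr2:168260117-168281736, minus strand), a silent subunit that joins Kcnb channels, had 0.0272, 0 and 0.0601 CPM in 97Q sums, against 3.36, 0.486 and 18.4 CPM in 25Q sums. The 97Q sums held 5 counts together, in 3 of 26 neurons. Kcnn3 (chr3:89520164-89675132, plus strand), a calcium-activated channel of small conductance, had 4.87, 7.50 and 3.03 CPM in 97Q sums, against 12.5, 44.5 and 23.3 CPM in 25Q sums, and its log2 change was -2.37 ± 0.99 (SE; unadjusted p = 0.0389, edgeR). All 97Q sums of Kcnn3 lay below all 25Q sums, and 3 of 26 97Q neurons reached 10 CPM, against 9 of 29 25Q neurons. Kcnab1 (chr3:65109384-65378223, plus strand) had 21.1, 9.23 and 50.9 CPM in 97Q sums, against 72.03, 101 and 175 CPM in 25Q sums, with a log2 change of -2.74 ± 1.17 (SE; unadjusted p = 0.0431, edgeR). Its sums also did not overlap.

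**Figure D2:**
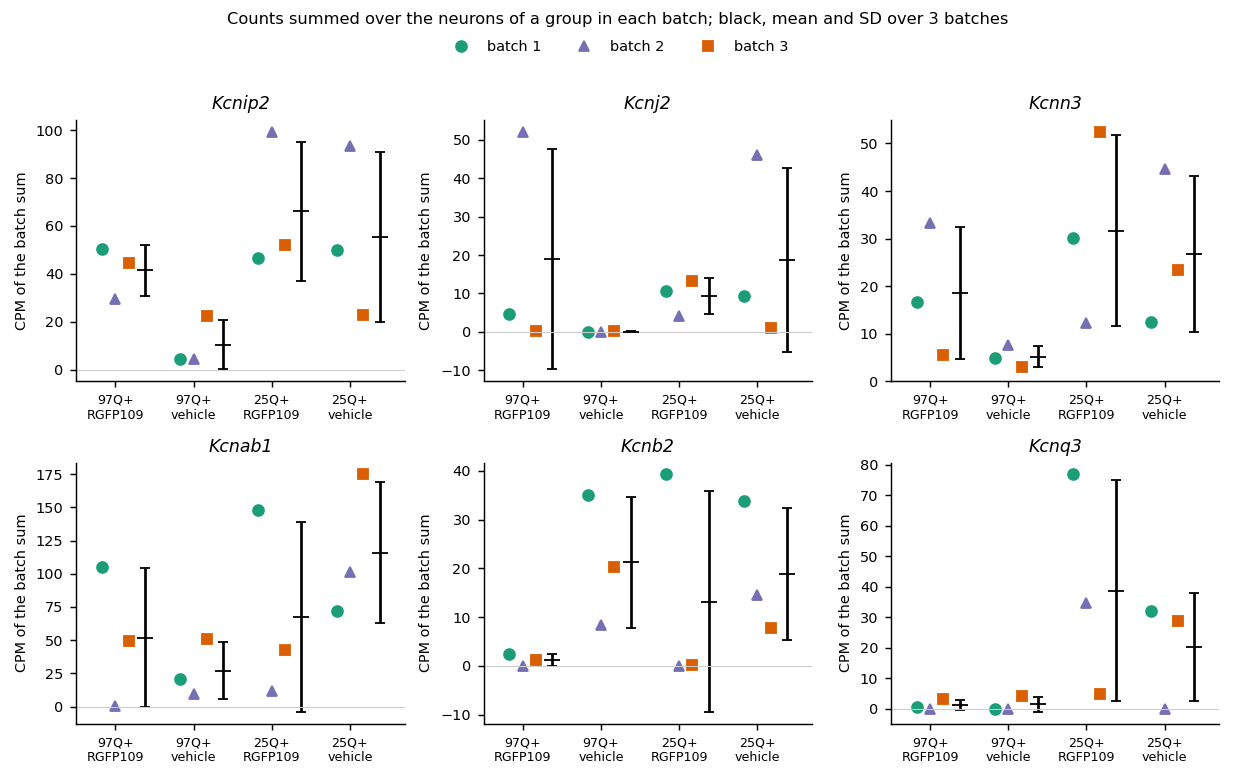
Levels of 6 potassium channel genes in CPM (vertical axis, linear) in the sums of the 4 groups with a transgene, 1 point per batch, with the mean and SD over 3 batches in black. For Kcnip2, Kcnn3 and Kcnab1 the 97Q points lie below the 25Q points, while Kcnj2 lies near 0 in 97Q and has 1 high batch in 97Q with RGFP109 and 1 in 25Q.

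Without overlap between the 3 and 3 sums, 7 of the 50 genes were lower in 97Q (4.68% of all genes were) and 1 was higher (3.78% of all genes were). The lower ones held the 5 above and Kcnk10, a mechanosensitive leak channel. Kcnk10 had 10.7, 10.7 and 15.0 CPM in 97Q sums, against 21.5, 22.6 and 40.04 CPM in 25Q sums, with an unadjusted p of 0.0956 in edgeR. Counted within batches, 10 of the 50 genes were lower in 97Q in each of the 3 batches and 5 were higher in each, against 13.2% and 15.8% of all genes. These shares of 20% and 10% lie on either side of their backgrounds.

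By family, the fitted changes were below 0 for 4 of 4 silent subunits, 3 of 3 Kcnd genes, 2 of 2 Kcnn genes, 5 of 6 Kcnj genes, 5 of 9 auxiliary genes, 4 of 6 Kcna genes, 2 of 2 Kcnb genes, 2 of 3 Kcnq genes and 2 of 3 genes of the Kcnma and Kcnt group. They were below 0 for 2 of 4 Kcnk genes, 2 of 5 Kcnh genes and 1 of 3 Kcnc genes, and none of these passed the adjusted test. Kcnq3, a subunit of the M-current that damps repeated firing, had 0.0272, 0 and 4.20 CPM in 97Q sums, against 32.1, 0 and 28.8 CPM in 25Q sums, with an unadjusted p of 0.101 in edgeR. At 10 CPM Kcnq3 was read in 1 of 26 97Q neurons and 11 of 29 25Q neurons. Kcnd2 had 117, 63.8 and 86.5 CPM in 97Q sums, against 29.5, 327 and 44.4 CPM in 25Q sums, so that its direction in batch 2 was opposite to that in batches 1 and 3.

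**Figure D3:**
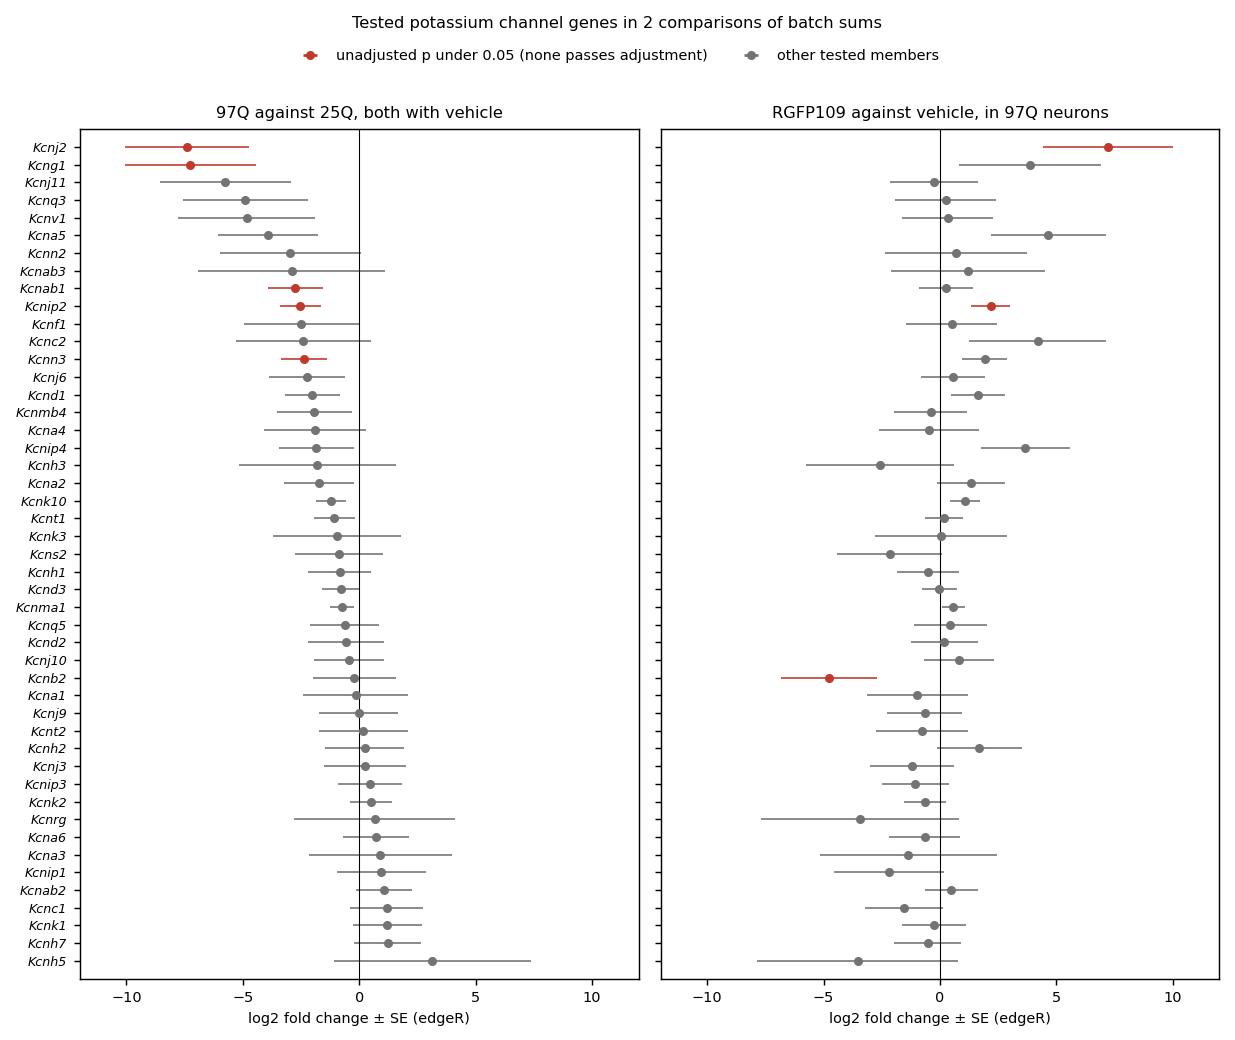
Fitted log2 changes with SE (horizontal axis) of the tested potassium channel genes reported here, for 97Q against 25Q under vehicle on the left and for RGFP109 against vehicle in 97Q on the right; red marks an unadjusted p below 0.05 in edgeR. Red points number 5 on the left, all below 0, and 3 on the right, with Kcnj2 and Kcnip2 above 0 and Kcnb2 below 0.

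The marker lists did not all move alike in this comparison. Of the 8 GABAergic markers 7, and of the 14 markers of projection neurons 12, had a lower mean level in 97Q than in 25Q sums. So did 7 of 8 endothelial and mural markers and 5 of 8 interneuron markers. The number was 6 of 12 for pan-neuronal, 6 of 18 for astrocyte, 3 of 8 for microglial and 2 of 8 for oligodendrocyte markers. Among all genes tested, 47.6% had a fitted change below 0. The summed GABAergic level did not overlap between the groups. The part of these differences in the levels of the potassium channel genes was not tested. Leaving out batch 1 left 1 gene with an unadjusted p below 0.05 in edgeR (Kcng1). Without batch 2 there were 6 such genes, of which only Kcng1 and Kcnn3 were among those named above for all batches. Without batch 3 there were 3, of which Kcnip2 and Kcnj2 were among those named above. No gene was in all of these sets, and Kcnab1 was in none of them. The summed level of the 64 genes was 1216, 837 and 1084 CPM in 97Q sums (1045 ± 192, SD, n = 3) and 1242, 1932 and 1331 CPM in 25Q sums (1502 ± 375), which did not overlap.

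RGFP109 was compared with vehicle within 97Q neurons, and this comparison shares its 97Q vehicle sums with the one above. None of the 50 genes passed the adjusted test in edgeR, and 0% of all genes did. At an unadjusted p below 0.05 edgeR had 3 of 50 genes (6%), 2 higher and 1 lower, against 2.48% of all genes (1.39% higher and 1.09% lower), and the adjusted p of each was 0.999. Kcnip2 had 50.4, 29.6 and 44.3 CPM in 97Q sums with RGFP109, against 4.66, 4.39 and 22.3 CPM in 97Q sums with vehicle, a log2 change of 2.18 ± 0.85 (SE; unadjusted p = 0.0291, edgeR). The sums did not overlap, and 13 of 26 neurons with RGFP109 and 10 of 26 with vehicle reached 10 CPM. The whole Kcnip2 sum of batch 2 came from 1 neuron in either group.

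Kcnj2 had 4.73, 52.1 and 0.105 CPM with RGFP109, against 0, 0 and 0.105 CPM with vehicle, so the groups were alike in batch 3, the batch with most cells. Only 4 of 26 neurons with RGFP109 reached 10 CPM, and 1 neuron gave 96.1% of the sum in batch 1 and 68.2% in batch 2. The fitted log2 change was 7.21 ± 2.78 (SE; unadjusted p = 0.0282, edgeR), which rests on sums at 0, and DESeq2 called it higher (adjusted p = 0.00968; 0.737% of all genes called). Over the 11 alternatives its adjusted p ran from 0.00968 to 1.00. Kcnb2 (chr1:15287254-15723750, plus strand), a delayed rectifier, had 2.35, 0 and 1.25 CPM with RGFP109, against 35.0, 8.31 and 20.2 CPM with vehicle, a log2 change of -4.76 ± 2.07 (SE; unadjusted p = 0.0460, edgeR). The groups did not overlap, and 2 of 26 neurons with RGFP109 and 7 of 26 with vehicle reached 10 CPM.

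Kcnn3 came next in order of p, with 16.7, 33.2 and 5.52 CPM in 97Q sums with RGFP109 and 4.87, 7.50 and 3.03 CPM with vehicle (log2 change 1.92 ± 0.97, SE; unadjusted p = 0.0784, edgeR). Without overlap between the sums, 4 genes were higher with RGFP109 (2.76% of all genes were) and 1, Kcnb2, was lower (3.39% of all genes were). The higher ones were Kcnip2, Kcnip4, Kcnk10 and Kcnma1. Kcnip4 had 74.1, 106 and 40.4 CPM with RGFP109, against 26.0, 0.923 and 21.0 CPM with vehicle. Kcnma1 had 111, 97.8 and 115 CPM with RGFP109, against 87.3, 76.97 and 68.3 CPM with vehicle, a small shift of 0.56 ± 0.50 on the log2 scale (SE; unadjusted p = 0.285, edgeR). The median log2 change of the 50 genes was 0.18, against -0.04 over all genes, and 22 of the 50 (44%) were below 0, against 52% of all genes. In each of the 3 batches 5 of the 50 genes were higher with RGFP109, which is 10%, against 9.64% of all genes, and 2 of the 50 (4%) were lower in each batch, against 14.1% of all genes. The summed markers of projection neurons were 1324, 825 and 653 CPM in 97Q sums with RGFP109 and 859, 1041 and 635 CPM in 97Q sums with vehicle. Without batch 1 no gene kept an unadjusted p below 0.05 in edgeR, and without the neurons of the transgene groups rich in glial markers 1 did.

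Within 25Q neurons RGFP109 was set against vehicle in the same way. Calls in edgeR's adjusted test were 0 of 50 and 0% of all genes, and no gene of the 50 had an unadjusted p below 0.05, against 2.52% of all genes (1.4% lower and 1.12% higher). The smallest unadjusted p in edgeR was 0.0514, for Kcns2, a silent subunit, with 12.3, 0.0959 and 0.0382 CPM with RGFP109, against 25.8, 92.3 and 21.2 CPM with vehicle. It was lower with RGFP109 in each batch, and it was 1 of 2 genes, with Kcnh3, that were lower without overlap (3.84% of all genes were), while 1 gene, Kcna6, was higher without overlap (2.89% of all genes were). Kcnh3, a slowly gating voltage-gated channel of the forebrain that shares exon sequence with Mcrs1, had 1.72, 0 and 0.0191 CPM with RGFP109, against 4.11, 2.05 and 4.84 CPM with vehicle. A level of 10 CPM was reached by 1 of 23 neurons with RGFP109 and 2 of 29 with vehicle. Of the Kcnh3 counts of all 64 neurons of batch 3, 87.8% came from 1 vehicle neuron with 79.4 CPM. Kcnv1, a silent subunit, had 10.4, 0.0959 and 17.1 CPM with RGFP109, against 23.6, 55.3 and 15.3 CPM with vehicle, and batch 3 ran opposite to the other batches. Kcnt2, a sodium-activated channel, had 39.8, 45.4 and 9.91 CPM with RGFP109, against 15.8, 0 and 37.7 CPM with vehicle, also with batch 3 opposite. DESeq2 called Kcnt2 higher (adjusted p = 0.0155) and Kcnv1 lower (adjusted p = 0.0323), with 1.07% of all genes called. For Kcnip2, 46.6, 99.2 and 52.2 CPM with RGFP109 stood against 50.0, 93.2 and 22.8 CPM with vehicle.

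Between 97Q and 25Q neurons that had both received RGFP109, edgeR called 0 of 50 genes and 0% of all genes after adjustment. One gene had an unadjusted p below 0.05 in edgeR, against 3.74% of all genes (1.84% lower and 1.9% higher). It was Kcnq3 (chr15:65986387-66286642, minus strand), the M-current subunit, with 0.477, 0 and 3.28 CPM in 97Q sums with RGFP109, against 76.8, 34.6 and 4.87 CPM in 25Q sums with RGFP109. The log2 change was -8.32 ± 2.98 (SE; unadjusted p = 0.0201, adjusted p = 0.999, edgeR), and the sums did not overlap. At 10 CPM Kcnq3 was read in 1 of 26 neurons with 97Q and RGFP109 and in 7 of 23 with 25Q and RGFP109. DESeq2 called Kcnq3 (adjusted p = 0.00516) and Kcnt2 (adjusted p = 0.00510) lower, with 1.87% of all genes called. Kcnt2 had 6.02, 0 and 35.9 CPM in 97Q sums with RGFP109, against 39.8, 45.4 and 9.91 CPM in 25Q sums with RGFP109, higher in 97Q in batch 3.

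After these in order of p came Kcnj11, the pore of channels closed by ATP, and Kcnj3. Kcnj11 had 0, 0 and 7.50 CPM in 97Q sums with RGFP109, against 2.43, 5.27 and 2.20 CPM in 25Q sums with RGFP109. Kcnj3 had 12.3, 0 and 102 CPM in 97Q sums with RGFP109, against 14.0, 145 and 121 CPM in 25Q sums with RGFP109. Kcnd2 had 139, 97.2 and 68.4 CPM in 97Q sums with RGFP109, against 62.4, 0 and 16.6 CPM in 25Q sums with RGFP109, without overlap, as was Kcnq5, a further Kcnq subunit (3.6% of all genes were higher without overlap). At 10 CPM Kcnd2 was read in 20 of 26 neurons with 97Q and RGFP109 and 8 of 23 with 25Q and RGFP109, but the fitted log2 change of 2.06 ± 1.55 had an unadjusted p of 0.215 in edgeR.

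The 97Q neurons with RGFP109 were also set against 25Q neurons with vehicle, to see how treated mutant cells stand beside the untreated wild type. In edgeR 0 of 50 genes and 0% of all genes passed after adjustment. An unadjusted p below 0.05 was found for 1 gene, which was higher in 97Q with RGFP109. The background was 3.33% of all genes (1.72% lower and 1.61% higher). Kcnb2, a different gene that did not reach this limit, had 2.35, 0 and 1.25 CPM in 97Q sums with RGFP109, against 33.9, 14.5 and 7.84 CPM in 25Q sums with vehicle. It was lower without overlap (4.38% of all genes were), with a log2 change of -4.97 ± 2.21 (SE; unadjusted p = 0.0505, adjusted p = 1.00, edgeR). Of the 50 genes 39 (78%) had a fitted change below 0, against 49.3% of all genes, with a median of -0.60. The Kcnip2 and Kcnj2 sums of these groups overlapped, with log2 changes of -0.35 and -0.18.

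The difference between the effects of RGFP109 in 97Q and in 25Q neurons was tested as an interaction. No gene of the 50 passed after adjustment in edgeR, as 0% of all genes did, and none had an unadjusted p below 0.05, against 2.6% of all genes. The smallest unadjusted p in edgeR were 0.0988 for Kcnt2, with a log2 difference of -7.05, and 0.100 for Kcnd1, a further A-type pore, with 2.95. Kcnip2 had an interaction of 1.99 and Kcnj2 one of 6.87 on the log2 scale. DESeq2 called none of the 50 genes in the interaction (0.464% of all genes called) or for 97Q with RGFP109 against 25Q with vehicle (1.39% of all genes called), and limma-trend called 0 in each of the 6 contrasts. An effect of the drug on these genes in 97Q that is absent in 25Q is thus not shown by these sums.

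Astrocytes were compared with the 64 neurons of batch 3 as 1 sum against another, which allows no test. Tissue of origin and treatment differ between them as well as cell type, and these cannot be told apart. A gene was counted when the CPM differed at least 8-fold with at least 20 counts over both sums. Of the 64 genes 4 were higher in astrocytes, against 8.1% of protein-coding genes, and 44 were lower, against 20.3% of protein-coding genes. Membership in the list required counts in neurons but not in astrocytes, and the background genes met no such rule. The number of lower genes is therefore fixed in part by the rule and cannot be read against its background. Intervals are exact 95% Poisson intervals of the ratio.

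Kcnj10 (chr1:172341210-172374085, plus strand), the glial inward rectifier that takes up potassium, had 408 CPM in astrocytes, against 9.18 CPM in neurons, 44.5-fold (42.8 to 46.2). Single astrocytes ran from 2.28 to 910 CPM with a median of 354 CPM, and single neurons up to 116 CPM with a median of 0.407 CPM. Kcnj13, an inward rectifier whose exons overlap those of Gigyf2, had 45.1 CPM in astrocytes, against 1.28 CPM in neurons, 35.3-fold (31.8 to 39.2). Kcnh5, a voltage-gated channel of the ether-à-go-go family, had 49.9 CPM in astrocytes, against 3.41 CPM in neurons. Kcnk2, a leak channel opened by stretch and lipids, had 188 CPM in astrocytes, against 16.9 CPM in neurons, 11.1-fold (10.8 to 11.5). Kcnj16, which pairs with Kcnj10, was read in 1 of 14 astrocytes and 9 of 64 neurons.

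The 44 genes lower in astrocytes held most voltage-gated and silent subunits. Kcnip2 had 0 counts in astrocytes, against 47.9 CPM in neurons, at least 1572-fold lower with a floor of 3 counts for the astrocyte sum. A count was found in 0 of 14 astrocytes, which allows a share of up to 23.2% (exact Clopper-Pearson), against 58 of 64 neurons. Kcnma1 had 0.132 CPM in astrocytes, with at most 1.22 CPM in a cell, against 94.8 CPM in neurons. Kcnd2 (chr6:21215503-21729805, plus strand) had 1 count in all astrocytes, 0.0102 CPM, against 58.5 CPM in neurons, 5757-fold lower with a counting interval of 1033 to 227392. Kcnab2, Kcnv1, Kcna1, Kcna4 and Kcnb2 had 1 astrocyte count each, so their order cannot be told. Kcnab2 was 2894-fold lower in astrocytes with a counting interval of 519 to 114330, and Kcnb2 was 1320-fold lower with one of 237 to 52158.

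Several genes were present in both cell types. Kcnd3 had 139 CPM in astrocytes and 42.5 CPM in neurons, and Kcnk10 had 91.8 CPM in astrocytes and 29.96 CPM in neurons. Kcnab1 had 116 CPM in astrocytes and 78.2 CPM in neurons, Kcnk1 had 44.9 CPM in astrocytes and 39.7 CPM in neurons, and Kcnn3 had 29.0 CPM in astrocytes and 22.3 CPM in neurons. Of the A-type pores, Kcnd3 was thus read in all 14 astrocytes while Kcnd2 had its 1 count there. With the 9 empty vector neurons alone as the neurons, 7 genes were higher in astrocytes, against 15.2% of protein-coding genes, and 34 were lower, against 16.9%. The limit set by choosing the genes in neurons holds here too.

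**Figure D4:**
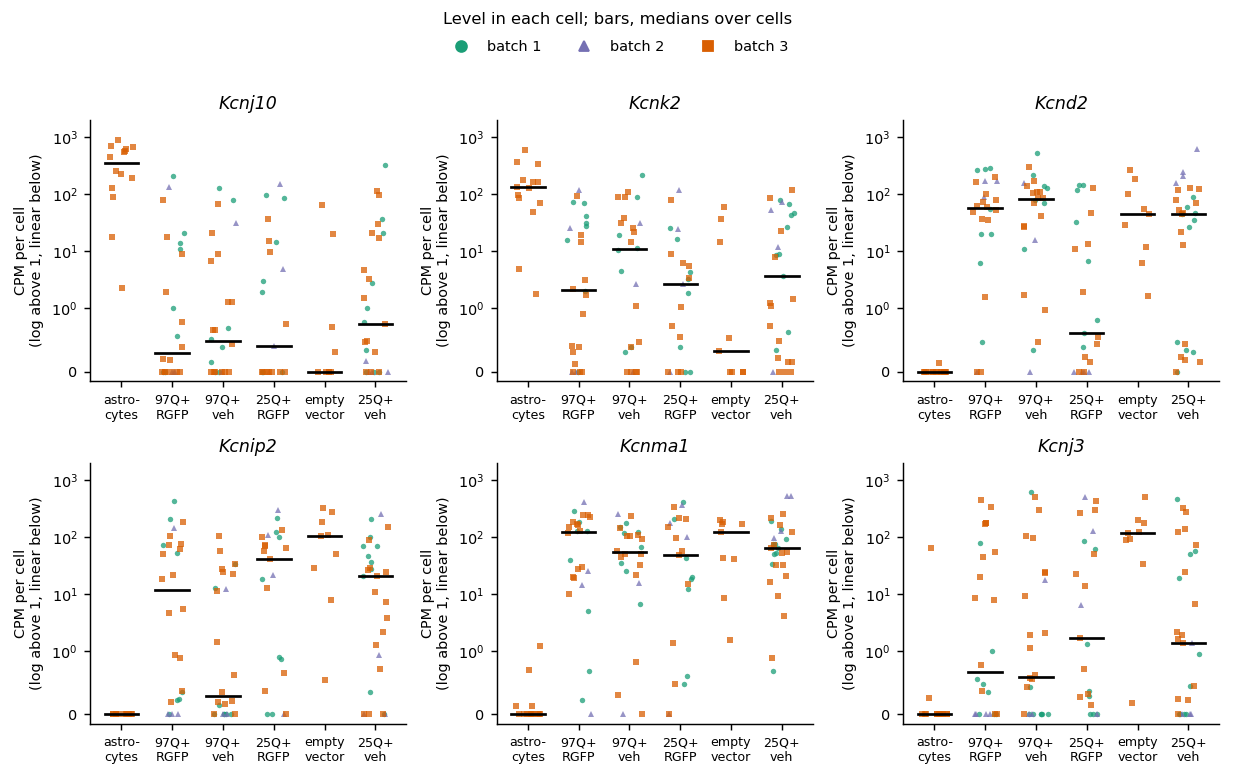
Level in each cell, in CPM on a log scale (vertical axis), of Kcnj10, Kcnk2, Kcnd2, Kcnip2, Kcnma1 and Kcnj3 in the 6 groups, 1 point per cell with a bar at the median. Astrocytes lie high for Kcnj10 and Kcnk2 and have a median of 0 for the other 4 genes, and neurons spread widely within every group.

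In neurons Kcnj10 followed the astrocyte markers. Spearman's rho between Kcnj10 and their summed CPM was 0.56 over all neurons, and 0.70, 0.66 and 0.47 within batches 1, 2 and 3. The 14 neurons whose glial markers exceeded 10% of the astrocyte median all had Kcnj10 counts, with 1.51 to 327 CPM and a median of 71.9 CPM, against a median of 0.201 CPM in the other 99 neurons, 53 of which had a count. Whether its reads in neurons came from neighbouring glia was not tested.

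Empty vector neurons were set against the 15 25Q neurons of batch 3 with a limit of 4-fold and at least 20 counts, again with 1 sum per group and no test. Of 61 genes with enough counts 8 were higher in empty vector neurons, against 9.33% of protein-coding genes, and 11 were lower, against 17.8%. Kcnip1, a Kcnd partner, had 108 CPM in empty vector neurons, against 9.59 CPM in 25Q neurons, 11.3-fold (10.4 to 12.3). Kcnip2 had 129 CPM in empty vector neurons, against 22.8 CPM in 25Q neurons, 5.65-fold, and Kcnb2 had 49.5 CPM in empty vector neurons, against 7.84 CPM in 25Q neurons. Kcnk4 and Kcnc4 were 9.79-fold and 7.77-fold higher, from 2 and 5 of the 9 empty vector neurons. Kcnv1 had 1 count in empty vector neurons, 0.0234 CPM, against 15.3 CPM in 25Q neurons. Kcnmb2, a subunit that inactivates Kcnma1 channels, had 1 count in empty vector neurons, against 6.19 CPM in 25Q neurons. Of the Kcnmb2 counts of all 64 neurons of batch 3, 45.3% came from 1 of these 25Q neurons. Over all batches 5 of 29 25Q neurons had a Kcnmb2 count. Kcnrg, a soluble regulator of Kcna channels, and Kcna5 had 0 counts in empty vector neurons and were at least 216-fold and 201-fold lower with a floor of 3 counts.

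Against the same empty vector neurons, 8 of 58 genes were higher in the 15 97Q neurons of batch 3, against 13.8% of protein-coding genes, and 18 were lower, against 13.6%. Of the 8 genes 3 had 100 counts or more over both sums, namely Kcnv1, Kcnrg and Kcna3. Kcnv1 had 40.01 CPM in 97Q neurons, against 0.0234 CPM in empty vector neurons, a ratio of 1711 with a counting interval of 307 to 67614. Of the other genes higher in 97Q, Kcnmb2, Kcnrg and Kcnn1 rested on 1 neuron each and Kcna5 on 5. Kcng1 had 4 counts in 97Q neurons, 0.0601 CPM, against 23.5 CPM in empty vector neurons. Of that empty vector sum, 91.7% came from 1 of the 9 neurons. Kcnu1, a large-conductance channel best known from sperm, had 3 counts in 97Q neurons, 0.0450 CPM, against 15.9 CPM in empty vector neurons. Kcnj12, an inward rectifier, had 2 counts in 97Q neurons, against 2.08 CPM in empty vector neurons, where 1 neuron gave 87.6% of the counts. Kcnh5 had 0 counts in 97Q neurons, at least 56.6-fold lower than the 2.55 CPM in empty vector neurons. There 1 neuron gave 93.6% of the Kcnh5 counts. Kcnn3 had 3.03 CPM in 97Q neurons, against 43.9 CPM in empty vector neurons, and Kcnip2 had 22.3 CPM in 97Q neurons, against 129 CPM in empty vector neurons. Kcnj2, in contrast, was low in each batch 3 group under vehicle or empty vector, with 0.105 CPM in 97Q neurons, 0.210 CPM in empty vector neurons and 0.959 CPM in 25Q neurons.

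A list of 35 other genes of potassium channel complexes, such as anchoring proteins and sodium pump subunits, was read from the same fit, and 30 were tested. None of them passed the adjusted edgeR test in any of the 6 contrasts. For 97Q against 25Q under vehicle 3 of the 30 had an unadjusted p below 0.05 in edgeR and were lower, against 2.46% of all genes, and 1 was higher, against 1.5%. Cntnap2, which clusters Kcna channels beside the nodes of axons, averaged 66.2 ± 12.8 CPM in 97Q sums and 157 ± 22.6 CPM in 25Q sums (SD, n = 3 each), a log2 change of -1.29 ± 0.33 (SE; unadjusted p = 0.00319, adjusted p = 0.969, edgeR). DESeq2 called it lower (adjusted p = 0.00855), as it did for 97Q with RGFP109 against 25Q with vehicle (adjusted p = 0.0178). In the other 5 contrasts 2 to 4 of the 30 genes had an unadjusted p below 0.05 in edgeR, against 2.48% to 3.74% of all genes. Akap5, an anchor for kinases at Kcnq channels, averaged 41.1 CPM in 97Q sums and 122 CPM in 25Q sums (unadjusted p = 0.0223, edgeR), and Atp1b3, a sodium pump subunit, averaged 159 CPM in 97Q sums and 83.2 CPM in 25Q sums (unadjusted p = 0.0230, edgeR).

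A few pairs of channel subunits that assemble together were compared from neuron to neuron. Kcnj3 and Kcnj6, which combine into G protein-gated channels, had a Spearman's rho of 0.51 over all neurons and 0.37, 0.73 and 0.44 within batches 1, 2 and 3. Kcnj3 had a count in 83 neurons, Kcnj6 in 44, and both in 40. By batch, both were read in 5 of 34, 4 of 15 and 31 of 64 neurons. The median of Kcnj6 was 0 in batches 1 and 2, so rho there rests largely on ties at 0. Kcnj3 with Kcnj9 had a rho of -0.08 over all neurons, and Kcnj3 with Kcnt2 had 0.45, with 0.70 in batch 2. The median rho over the 2016 pairs of the 64 genes was 0.05. Kcnd2 and Kcnip2 had a rho of -0.15 over all neurons and -0.38, -0.12 and -0.05 within batches 1, 2 and 3. For Kcnma1 and its neuronal subunit Kcnmb4 it was -0.15 over all neurons and -0.09, 0.19 and -0.25 within batches. These cells share libraries made in the same way and differ in depth, and in sparse counts a weak correlation is no finding.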

How the data were processed

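RNA was measured in single cells with SMARTer cDNA and Nextera XT libraries, per the labels' protocols. The authors deposited raw read counts per Ensembl gene, 1 column per cell. The submitters' processing notes name FastQC, Trimmomatic 0.36, STAR 2.5 and HTSeq 0.9.1 with GRCm38 and mm10. Neither the strand setting nor the annotation release is given in the sources used here.

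The potassium channel genes, the other lists and the tests were chosen with earlier results of these data known. Of 53465 genes, 53360 were matched to GENCODE M21 for symbol, length and position. Counts were summed per group and batch into 12 sums. edgeR 4.0.16 (R 4.3.3) fitted a robust quasi-likelihood model with TMM scaling and terms for group and batch to 15091 genes, which passed filterByExpr and had a count in at least 20% of 104 neurons. This left 6 residual degrees of freedom, and the common biological coefficient of variation was 0.928. P-values were adjusted by Benjamini and Hochberg over all genes tested, two-sided, at 0.05.

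Batch enters as a block because the labels name it. Across genes, deviations of sums from their group means correlated at 0.129 to 0.193 (batch 1), 0.0969 to 0.144 (batch 2) and 0.200 to 0.299 (batch 3) for sums that share a batch, against -0.187 to 0.0347 for others. Alternatives were RLE scaling, DESeq2 1.42.0, limma-trend (limma 3.58.1), other filters, no batch term, each batch left out, cells thinned to 900000 counts, and neurons rich in glial markers left out. Of the 14 such neurons 1 was an empty vector neuron, which was not in the fit. Genes named are the 4 with the smallest p per contrast, the 10 highest by RPKM, those past the fold limits (8 per direction for astrocytes, 4 for empty vector), those at the edge of the rule and a list of channels known from striatal neurons or glia. Other genes were named after their values were seen, for sums that did not overlap. Values of some genes counted in the list are not reported here.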

Additional observations from a re-analysis of the deposited data

Results flagged for a closer look

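The summed level of the 64 potassium channel genes was checked per neuron in 8 sets of neurons of 1 group and batch with 4 to 10 cells. In 97Q neurons of batch 1, 1 of 8 neurons had 2292 CPM, farther from the others than Dixon's 95% critical value allows. Chance flags about 1 in 20 groups. The cause was not tested.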

How the results depend on the processing

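Of 588 results recomputed under another setting, 556 kept their direction, their side of the threshold or their size. DESeq2 called 1 gene of the list for 97Q against 25Q, 1 for RGFP109 in 97Q, 2 for RGFP109 in 25Q and 2 for 97Q against 25Q under RGFP109, where edgeR called 0, and of the other complex genes it called 1 for 97Q against 25Q, 1 for RGFP109 in 25Q and 1 for 97Q with RGFP109 against 25Q. Leaving out batches, the median log2 change of the list ran from -1.22 to -0.59 for 97Q against 25Q, from -0.65 to -0.028 under RGFP109 and from -0.89 to -0.15 for 97Q with RGFP109 against 25Q. The interaction median was 0.69, with 0.27 without the filter, 0.28 with a count in 10% of neurons and 1.30 without glia-rich neurons. For 97Q against 25Q, Kcnd2 and Kcnj10 reversed under limma-trend (0.15 and 1.63). With a batch left out Kcnd2 ran from -1.55 to 1.37, Kcnd3 from -1.52 to 0.18 and Kcnma1 from -1.34 to 0.14, each positive without batch 2, and Kcnj10 from -0.88 to 0.85, positive without batch 3. With no batch block Kcnj10 stood at 0.077, and the block changed no call. The mean over cells was 1762 CPM for the list in empty vector neurons and 1201 CPM in astrocytes, against 1823 and 1232 CPM in sums. With empty vector neurons alone 7 genes, in place of 4, were higher in astrocytes, and at 100 counts or more 3, in place of 8, were higher in 97Q than in empty vector neurons. The cause was not tested. The common coefficient of variation between sums was 0.928, with 3 batches per group.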
